A study of Mus musculus with 8 samples.

Results

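The nuclear-encoded subunits of mitochondrial complexes II, III, IV and V, with the electron carrier cytochrome c, were represented by 96 probe sets for 48 genes, out of 45037 probe sets besides controls. Members were all probe sets that the platform's annotation assigns to a single gene with a fitting symbol. Such a symbol begins with Sdh (subunits a to d), Uqcr, Cox4 to Cox8 or Atp5, or is Cycs or Cyc1. The rule uses no measured value, but it was chosen with earlier results of these data known. Complex II had 9 probe sets for 4 genes, complex III 17 for 9 genes, cytochrome c 4 for 1 gene, complex IV 35 for 17 genes and complex V 31 for 17 genes. All 48 symbols were the same in the newer gene table. Cox7b, another complex IV subunit, had no probe set of its own in this annotation and was not analysed here.

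Affymetrix mouse arrays compared 4 samples of SThdh7/7 cells with 4 samples of SThdh111/111 cells, starting from total RNA. As background, cells so named derive from the embryonic striatum of knock-in mice, are homozygous for the Htt allele in the name (a long polyglutamine stretch in SThdh111/111, a short one in SThdh7/7), and both carry a conditional large T antigen that immortalises them. No treatment, time or age is given in the labels. Each genotype is represented by 1 line, and genotype cannot be told apart from other differences between the lines. The labels do not say whether samples were separate cultures, so the p-values measure the spread between these samples, which may be technical.

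Complex II feeds electrons from succinate into ubiquinone, complex III passes them to cytochrome c, complex IV hands them to oxygen, and complex V, the ATP synthase, uses the resulting proton gradient to make ATP. Each large complex joins a few catalytic subunits to many small accessory ones, and the subunits encoded by mitochondrial DNA are made separately. Striatal neurons depend heavily on this pathway, and inhibitors of complex II are a classical way to damage the striatum in animals.

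Htt, which names the lines, measured 9.13 ± 0.18 (log2 intensity, SD, n = 4) in SThdh7/7 and 8.71 ± 0.30 in SThdh111/111 at its brightest probe set (limma adjusted p = 0.084). Of its 3 other probe sets 1 was called, which fell by 1.09 ± 0.32 (adjusted p = 0.024), and the array does not read the repeat length. Within SThdh7/7, samples 1 and 2 were unlike the remaining arrays, with median intensities of 173.9 and 174.0 against 136.2 to 147.0. A floor for signal, the highest array's 95th percentile of 27 bacterial control probe sets, was a log2 intensity of 7.02. On all 8 arrays 75 of the 96 member probe sets were above it, and 13 were below it on all 8. Of 6 tested striatal projection neuron markers Drd1 and Ppp1r1b were below the floor on every array, and Drd2, Tac1 and Bcl11b were above it on some arrays of each line and not called. Penk rose by 2.96 ± 0.35 (adjusted p = 2.5e-05) and passed the floor in 1 of 4 SThdh7/7 samples and in all those of SThdh111/111. Markers of other cells moved with the line, in both directions. Among 6 neuron markers Map2 fell by 0.52 and Stmn2, mostly below the floor, by 1.49. Among 5 astrocyte markers Slc1a3 rose by 1.82 and Aldh1l1 fell by 2.47. Csf1r rose among 5 microglial markers. Cldn5 fell among 5 endothelial ones, a call lost after quantile normalization. The 2 oligodendrocyte markers tested were not called. Of 5 mesenchymal markers 4 rose, their summed intensity going from 8310 to 9723 in SThdh7/7 to 62186 to 74690 in SThdh111/111. Of 5 neural progenitor markers 3 fell, Pax6 by 5.02 to below the floor, Sox2 by 2.06 and Nes by 1.38, Hes5 was below the floor in both lines, and Vim was at 15.50 in both. Vim is the brightest by far, so the list's summed intensities of 48437 to 54386 in SThdh7/7 and 46160 to 50304 in SThdh111/111 do not show those falls. The part of these differences in the results below was not tested. In bulk RNA, fewer cells of a type and less RNA per cell cannot be told apart.

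Genes of complexes II to V moved in both directions between the lines. Of the 94 member probe sets tested, 24 were higher and 13 lower in SThdh111/111 (limma, adjusted p under 0.05), with a median difference of 0.03 on the log2 scale and a range from -3.81 to 1.04. That is 25.5% higher and 13.8% lower. Of all 41409 tested probe sets 22.4% were called, 9.87% higher and 12.6% lower, with a median of -0.12. The lines did not overlap at 38 of the 94, and at 25.1% of all tested. Most members are bright, and bright probe sets were called more often. Among the 1513 probe sets with a mean log2 intensity of at least 12, 61.4% were called, 38.7% higher and 22.7% lower, with a median of 0.11. The 53 members at that brightness gave 35.8% and 15.1%, shares near or below that background, with a median of 0.16.

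The split between higher and lower calls depended on how the arrays were scaled. As deposited, all probe sets together sat at -0.12 and bright ones at 0.11, and quantile normalization brought these medians to -0.03 and -0.05. It left 18 member probe sets higher and 24 lower, against 10.1% and 11.7% of all probe sets (21.8% called). Of the bright members 26.4% were then higher and 34% lower, where 61% of all bright probe sets were called, 25.8% higher and 35.2% lower. The 24 lower ones held all 13 lower as deposited and 11 others that had not been called, while 6 of the 24 higher ones lost their call. Centring each array on its median added 0.15 to every member's difference, put all probe sets at 0.04 and bright ones at 0.26, and left 20 members higher and 2 lower, against 10.2% and 6.7% of all probe sets (16.9% called). Centring thus moves bright probe sets further up, and its calls are no separate check of the rises. Changes are given below as deposited, mostly with the value after quantile normalization.

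**Figure D1:**
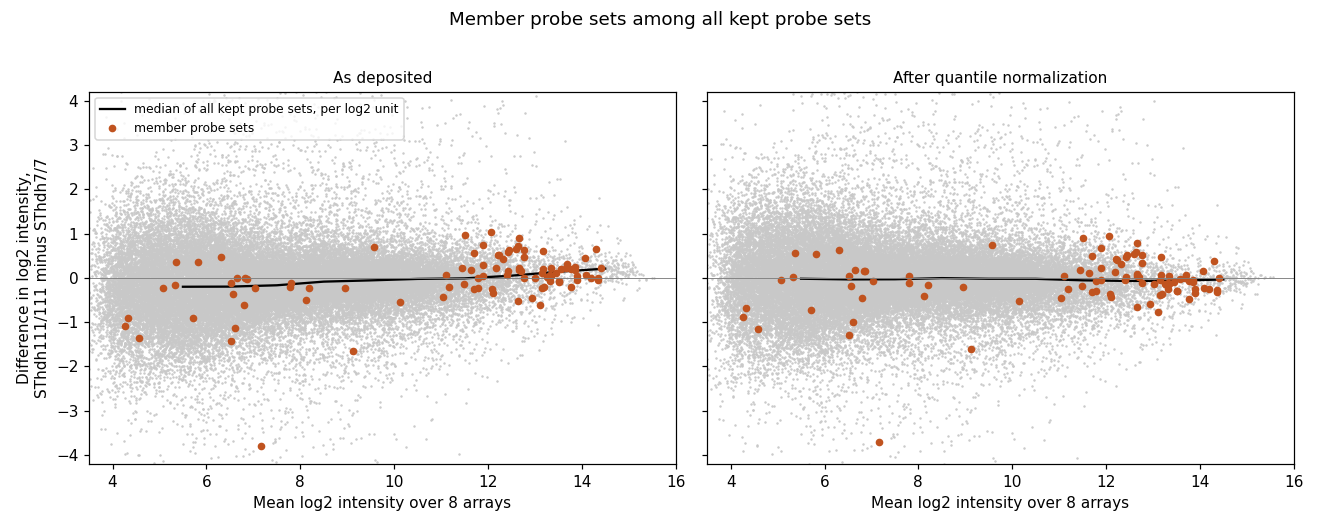
Difference in log2 intensity (SThdh111/111 minus SThdh7/7) against mean log2 intensity over the 8 arrays, as deposited (left) and after quantile normalization (right). Grey points are all tested probe sets (those beyond the vertical axis are not drawn), the black line is their median in steps of 1 log2 unit, and orange points are the 94 members tested. On the left the black line rises with brightness and on the right it stays near 0, and the lowest orange point, at -3.81 and -3.71, is a probe set of Uqcr10.

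With each gene read at its brightest probe set, 14 of the 48 genes were higher and 7 lower. Among all 17389 named genes 13.1% were higher and 15.9% lower (29% called). Most members are bright, and probe sets with a mean log2 intensity of at least 12 gave 38.7% and 22.7%. Of the 14, 11 were also higher after quantile normalization: Sdhd, Uqcrh, Uqcr11, Uqcr10, Cox4i1, Cox6c, Cox7a2l, Atp5e, Atp5k, Atp5l and Atp5md. The 7 lower genes were Cycs, Uqcrfs1, Cox5a, Cox8c, Atp5o, Atp5d and Atp5mpl. After quantile normalization 11 genes were higher and 14 lower, all 7 among them, where 13.4% and 15.3% of all named genes were (28.7% called). Bright probe sets then gave 25.8% and 35.2%. After centring all 7 differences stayed below 0, but limma called 0 of the 48 genes lower there, and 3 had an unadjusted p under 0.05. The count of lower genes was 3 without SThdh111/111 sample 2 and 4 without its sample 1 or 3.

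**Figure D2:**
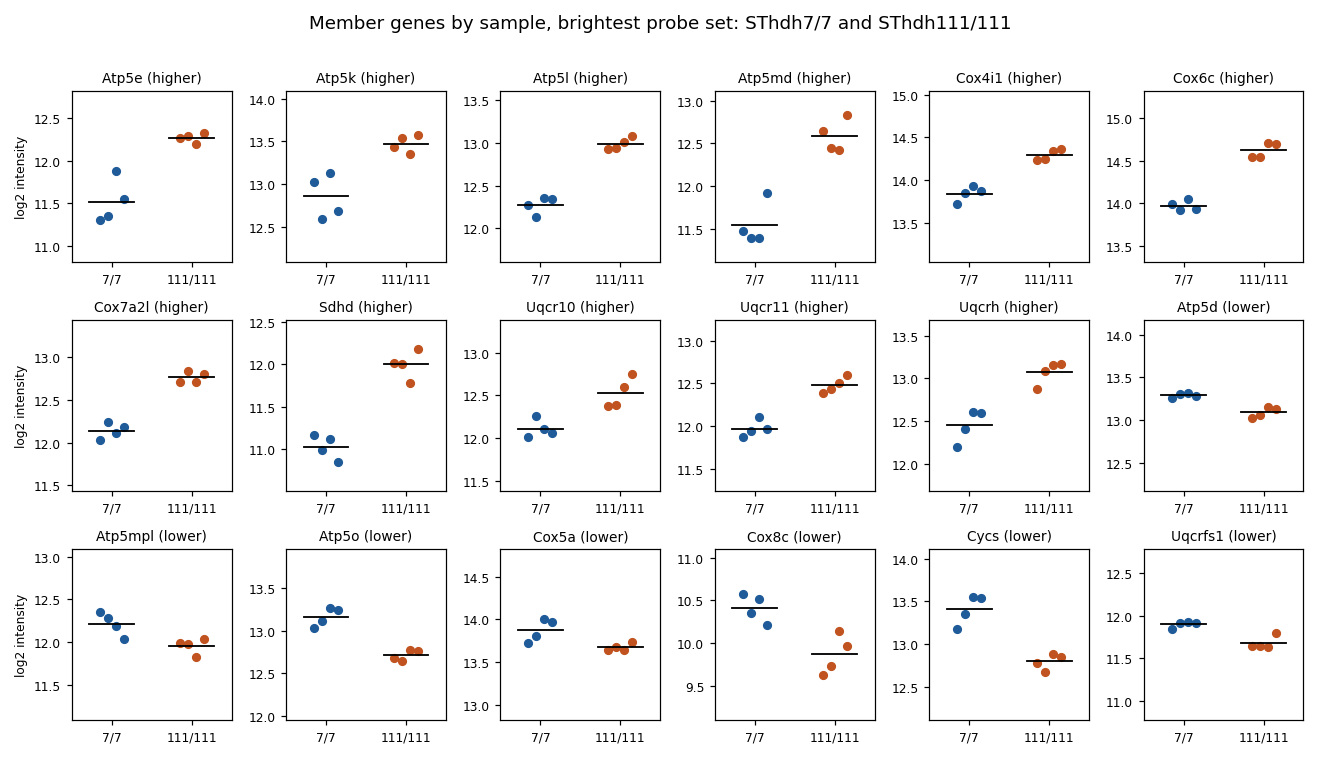
Log2 intensity of each sample (points, 4 per line, SThdh7/7 blue and SThdh111/111 orange) and line means (bars) for the 11 genes called higher and the 7 called lower both as deposited and after quantile normalization, at their brightest probe set. Every vertical axis spans 2 log2 units, levels are not comparable between genes, and the 4 samples of each line form separate groups in 17 of the 18 panels, and those of Cox5a overlap at 13.73.

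In complex II, 2 of 8 tested probe sets were higher, both of Sdhd, with a median of 0.11. This count and those of the other complexes and cytochrome c below stand beside 9.87% higher and 12.6% lower of all tested probe sets. Of bright ones 38.7% were higher and 22.7% lower. Sdhd, a small membrane anchor that helps bind ubiquinone, measured 11.17, 11.00, 11.12 and 10.85 in the 4 SThdh7/7 samples and 12.01, 12.01, 11.78 and 12.18 in the 4 SThdh111/111 samples (log2 intensity). Every SThdh111/111 sample was above every SThdh7/7 sample. The rise was 0.96 ± 0.09 (SE; adjusted p = 3.5e-06), and 0.90 after quantile normalization. Its dimmer probe set rose by 0.70 ± 0.17, from 8.64, 9.16, 9.60 and 9.51 in SThdh7/7 to 10.02, 9.90, 9.95 and 9.82 in SThdh111/111, and by 0.37 without SThdh7/7 samples 1 and 2, of which sample 1 was the lowest. The catalytic subunits Sdha, which carries the flavin, and Sdhb, which carries the iron-sulphur clusters, differed by 0.22 ± 0.11 and 0.15 ± 0.07 at their brightest probe sets and were not called (adjusted p = 0.17 and 0.13). Sdhc, the other anchor, differed by 0.03 ± 0.10. Of the 8 tested probe sets of complex II limma called 0 lower, as it did at an unadjusted p under 0.05.

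In complex III, 4 of 17 probe sets were higher and 3 lower, with a median of 0.01, and 4 and 5 after quantile normalization. The rises were in small accessory subunits, and the Rieske subunit fell slightly. Uqcrh, the acidic hinge protein beside the cytochrome c binding site, measured 12.15, 12.19, 12.43 and 12.30 in SThdh7/7 and 12.87, 12.79, 13.04 and 13.01 in SThdh111/111. The lines did not overlap, and the rise was 0.66 ± 0.08 (adjusted p = 2.3e-05), 0.53 after quantile normalization. Its second, slightly brighter probe set rose by 0.62 ± 0.10. The annotation lists 2 pseudogenes named for Uqcrh, with -ps in the symbol, whose transcripts such probe sets could also read. Pseudogenes under other names were not counted, for this gene or any other.

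Uqcr11, another very small accessory subunit, measured 11.88, 11.94, 12.10 and 11.96 in SThdh7/7 and 12.38, 12.44, 12.50 and 12.61 in SThdh111/111, again without overlap, a rise of 0.51 ± 0.07 (adjusted p = 9e-05) that was 0.41 after quantile normalization. Uqcrfs1, the Rieske iron-sulphur protein, was steady within each line, at 11.84, 11.91, 11.93 and 11.91 in SThdh7/7 and 11.65, 11.64, 11.63 and 11.79 in SThdh111/111. It fell by 0.22 ± 0.06 (adjusted p = 0.02), by 0.29 after quantile normalization, and differed by -0.07 after centring (adjusted p = 0.8). Cyc1, the haem-bearing cytochrome c1 subunit, measured 12.52, 12.59, 12.62 and 12.55 in SThdh7/7 and 12.62, 12.72, 12.76 and 12.85 in SThdh111/111, with the lines touching at 12.62. Its difference of 0.17 ± 0.06 was not called (adjusted p = 0.075), but it was called without SThdh111/111 sample 1 (adjusted p = 0.037) and when only probe sets at a log2 of at least 8 were kept (adjusted p = 0.038). The small subunits Uqcrb and Uqcrq were not called as deposited, and the brightest Uqcrb probe set, at 14.21, 14.30, 14.17 and 14.06 in SThdh7/7 and 14.13, 14.18, 14.22 and 14.23 in SThdh111/111, was called lower after quantile normalization (-0.25). The core proteins Uqcrc1 and Uqcrc2, relatives of mitochondrial processing peptidases, differed by 0.07 ± 0.06 and -0.01 ± 0.10 at their brightest probe sets.

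Uqcr10, another small subunit, was the 1 member gene whose probe sets were called in opposite directions. Its brightest probe set, 1424364_a_at, measured 12.01, 12.25, 12.11 and 12.05 in SThdh7/7 and 12.38, 12.38, 12.60 and 12.75 in SThdh111/111, a rise of 0.42 ± 0.09 (adjusted p = 0.003), 0.31 after quantile normalization. Probe set 1434341_x_at went the other way, from 10.23, 9.98, 9.39 and 10.19 in SThdh7/7 to 9.04, 7.19, 8.45 and 8.49 in SThdh111/111, and fell by 1.66 ± 0.31 (adjusted p = 0.0014), by 1.60 after quantile normalization. All 3 probe sets separated the lines.

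Probe set 1434340_at was the most changed member. It measured 9.19, 9.36, 8.91 and 8.81 in SThdh7/7 and 5.08, 5.38, 4.83 and 5.76 in SThdh111/111, where all 4 samples lay below the floor, so it was at least 4.13-fold lower there, the SThdh7/7 mean against the floor (adjusted p = 4.6e-07). The platform table ties this probe set and 1434341_x_at to 1 sequence record and the brightest one to another. What transcript they read was not tested, and the gene is therefore counted by its brightest probe set.

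**Figure D3:**
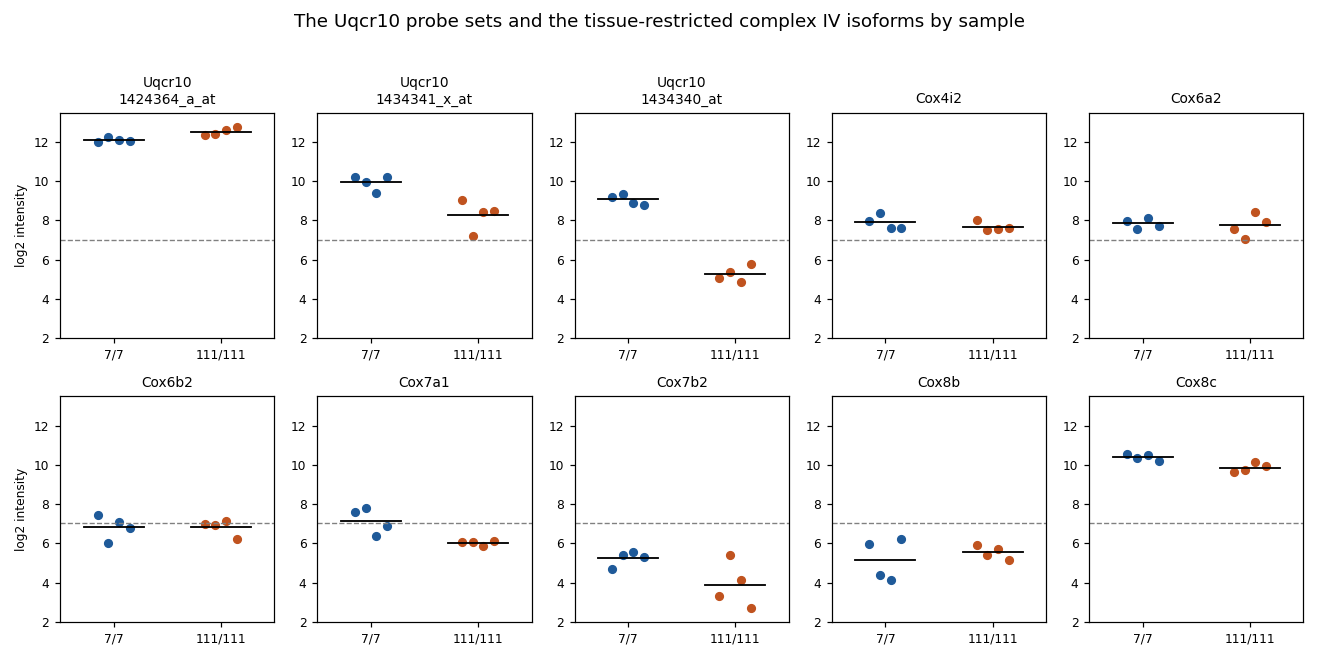
Log2 intensity of each sample (points, 4 per line) and line means (bars) for the 3 Uqcr10 probe sets and for the 7 complex IV isoform genes named for other tissues at their brightest probe sets. With the floor dashed at 7.02, the brightest Uqcr10 probe set was higher in SThdh111/111 and the other 2 lower, and of the isoforms Cox8c alone lay far above the floor in both lines.

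Cytochrome c, the soluble carrier between complexes III and IV and a trigger of apoptosis when released, was lower at 3 of its 4 probe sets. The brightest measured 13.18, 13.35, 13.55 and 13.54 in SThdh7/7 and 12.78, 12.67, 12.89 and 12.85 in SThdh111/111. The lowest SThdh7/7 value lay above the highest SThdh111/111 value, and Cycs fell by 0.61 ± 0.09 (adjusted p = 0.00011), by 0.78 after quantile normalization. A second probe set measured 12.70, 12.86, 13.03 and 13.05 in SThdh7/7 and 12.33, 12.45, 12.35 and 12.45 in SThdh111/111 and fell by 0.52 ± 0.08 (adjusted p = 0.00026).

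The third bright one, 1422484_at, fell by 0.43 ± 0.08, and 1445484_at, below the floor on all arrays, was not called. In both probe sets with values given, SThdh7/7 samples 1 and 2 were below samples 3 and 4, and without them the falls were 0.75 and 0.65. After centring the differences were -0.46 and -0.36 and were no longer called (adjusted p = 0.074 and 0.15). The annotation lists 3 pseudogenes named for Cycs.

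In complex IV, 8 of 34 tested probe sets were higher and 3 lower, with a median of -0.01, and after quantile normalization 6 were higher and 9 lower, with a median of -0.11. The rises that held after quantile normalization were in Cox6c, Cox7a2l and Cox4i1. Cox6c, a small membrane subunit, measured 13.99, 13.92, 14.05 and 13.94 in SThdh7/7 and 14.54, 14.54, 14.71 and 14.69 in SThdh111/111, with no overlap. Its rise was 0.65 ± 0.06 (adjusted p = 3.5e-06), 0.39 after quantile normalization. The second Cox6c probe set rose by 0.90 ± 0.14.

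Cox7a2l, a relative of the complex IV subunit genes whose protein links complexes III and IV into supercomplexes, measured 12.13, 12.12, 12.11 and 12.14 in SThdh7/7 and 12.69, 12.71, 12.61 and 12.83 in SThdh111/111. The SThdh7/7 samples were almost identical, and the rise was 0.59 ± 0.06 (adjusted p = 6.3e-06), 0.47 after quantile normalization. Its brightest probe set measured 12.03, 12.24, 12.11 and 12.19 in SThdh7/7 and 12.71, 12.84, 12.71 and 12.81 in SThdh111/111, a rise of 0.63 ± 0.07. All 3 Cox7a2l probe sets rose, also after quantile normalization.

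Cox4i1, the common form of the subunit through which ATP can inhibit the enzyme, measured 13.72, 13.85, 13.92 and 13.86 in SThdh7/7 and 14.23, 14.24, 14.33 and 14.36 in SThdh111/111. The lines did not overlap, and it rose by 0.45 ± 0.06 (adjusted p = 9.7e-05). Quantile normalization reduced the rise to 0.15 (adjusted p = 0.025).

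The other common subunits of complex IV differed by less at their brightest probe sets. Cox5a, which faces the matrix, fell by 0.23 ± 0.06 at probe set 1448153_at (adjusted p = 0.014), from 13.22, 13.34, 13.31 and 13.20 in SThdh7/7 to 13.09, 13.12, 12.99 and 12.96 in SThdh111/111, without overlap. Its brightest probe set measured 13.73, 13.80, 14.01 and 13.97 in SThdh7/7 and 13.64, 13.67, 13.64 and 13.73 in SThdh111/111. The lines overlapped, and the fall of 0.21 ± 0.07 just passed (adjusted p = 0.049). After quantile normalization the falls were 0.38 and 0.47 (adjusted p = 9e-04 and 5.8e-06), and after centring the differences were -0.07 and -0.05, uncalled. The remaining Cox5a probe set, not called with all samples (adjusted p = 0.99), fell by 0.41 without SThdh7/7 samples 1 and 2 (adjusted p = 0.00057).

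Cox6b1, which lies on the intermembrane side, measured 13.39, 13.55, 13.67 and 13.63 in SThdh7/7 and 13.73, 13.75, 13.83 and 13.84 in SThdh111/111 and rose by 0.23 ± 0.07 (adjusted p = 0.026). It differed by -0.01 after quantile normalization and was also lost when any of 4 single samples was left out (adjusted p = 0.057 to 0.074), namely SThdh7/7 sample 1 or 2 or SThdh111/111 sample 3 or 4. Cox6a1, the common form of the subunit near the dimer face, measured 14.22, 14.39, 14.50 and 14.41 in SThdh7/7 and 14.29, 14.29, 14.36 and 14.39 in SThdh111/111, with the lines overlapping (difference -0.04 ± 0.07, adjusted p = 0.72). It was called lower after quantile normalization, at -0.31 (adjusted p = 0.00019), and was 0.11 after centring.

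Cox7a2, the common form of its subunit, was likewise called only after quantile normalization. It measured 14.27, 14.43, 14.41 and 14.33 in SThdh7/7 and 14.29, 14.35, 14.37 and 14.39 in SThdh111/111, overlapping fully (difference -0.01 ± 0.06, adjusted p = 0.96), and stood at -0.27 after quantile normalization (adjusted p = 0.00057). Cox8a, the common form of the smallest subunit, measured 13.81, 13.72, 13.77 and 13.77 in SThdh7/7 and 13.81, 13.90, 13.97 and 14.12 in SThdh111/111, a difference of 0.19 ± 0.07 (adjusted p = 0.075, 0.033 without SThdh111/111 sample 1 and 0.037 with the filter at 8). Cox5b was called higher at 1 of its 6 probe sets, by 0.32 ± 0.10, and at its brightest differed by -0.06 ± 0.07. After quantile normalization the higher call was lost (0.08, adjusted p = 0.72) and 3 Cox5b probe sets were called lower, the brightest at -0.34 (adjusted p = 0.0023) and the other 2 at -0.25 each. Both Cox7c probe sets were below the floor on all arrays, so this common subunit was in effect not measured.

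Of the 7 complex IV genes that are named for restricted tissues, 1 was called. Cox8c, the testis form of its subunit, measured 10.57, 10.35, 10.51 and 10.21 in SThdh7/7 and 9.63, 9.73, 10.14 and 9.96 in SThdh111/111 and fell by 0.54 ± 0.12 (adjusted p = 0.0044). The lines did not overlap, its other probe set differed by -0.24 ± 0.35, the fall was 0.52 after quantile normalization, and after centring the call was lost (difference -0.39, adjusted p = 0.077). Of 6 testis germ cell markers limma called 0, also at an unadjusted p under 0.05, and none was above the floor on all arrays of either line.

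Cox4i2, the lung form, measured 7.98, 8.40, 7.59 and 7.62 in SThdh7/7 and 8.02, 7.52, 7.57 and 7.63 in SThdh111/111, overlapping (adjusted p = 0.6). Cox6a2, the heart and muscle form, measured 7.97, 7.58, 8.12 and 7.72 in SThdh7/7 and 7.55, 7.06, 8.45 and 7.92 in SThdh111/111, also overlapping (adjusted p = 0.85). Both lay a little above the floor.

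Cox7a1, the heart and muscle partner of Cox7a2, measured 7.58, 7.79, 6.40 and 6.88 in SThdh7/7 and 6.09, 6.08, 5.89 and 6.10 in SThdh111/111. The lines separated, but 2 of 4 SThdh7/7 samples and all SThdh111/111 samples were below the floor, and the difference of -1.12 ± 0.40 was not called (adjusted p = 0.061). It stood at -0.60 without SThdh7/7 samples 1 and 2, the samples above the floor, and was called without SThdh7/7 sample 3 (adjusted p = 0.026) and with a filter at a log2 of 6 (adjusted p = 0.048).

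The testis form Cox6b2 hovered around the floor, at 7.44, 6.04, 7.10 and 6.78 in SThdh7/7 and 7.01, 6.96, 7.12 and 6.22 in SThdh111/111. Cox7b2, also a testis form, and Cox8b, a heart and muscle form, were below it on every array, at 4.69, 5.42, 5.56 and 5.32 in SThdh7/7 and 3.33, 5.42, 4.14 and 2.71 in SThdh111/111 for Cox7b2 and 5.98, 4.41, 4.12 and 6.21 in SThdh7/7 and 5.92, 5.40, 5.70 and 5.16 in SThdh111/111 for Cox8b. Of 10 striated muscle markers 6 were below the floor on every array. Ckm and Tnnt2 fell, the call of Ckm being lost after quantile normalization, and Tnnt2 was above the floor in SThdh7/7 alone. The rest were not called. The summed intensity of the 10 was 2556 to 3183 in SThdh7/7 and 643 to 962 in SThdh111/111. Tnnt2 was the brightest of them in SThdh7/7, at a mean of 10.79 against 3.71 in SThdh111/111, so the sum mostly follows this gene.

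**Figure D4:**
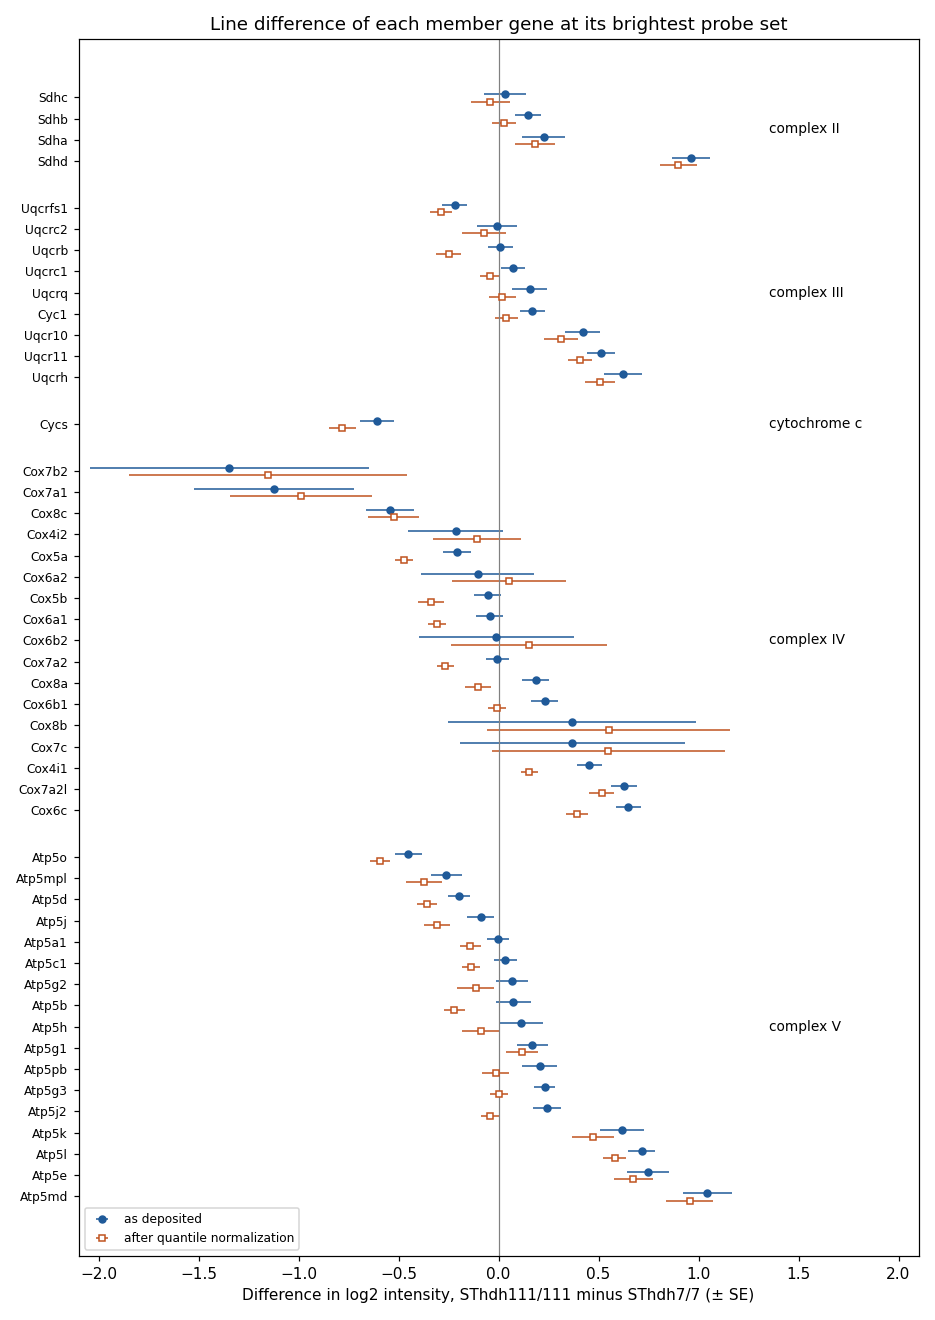
Difference in log2 intensity (SThdh111/111 minus SThdh7/7) with its standard error for each of the 48 genes at its brightest probe set, grouped by complex and ordered within it, as deposited (filled circles) and after quantile normalization (open squares). The squares lie left of the circles for bright genes, Sdhd at 0.96 and Atp5md at 1.04 stand at the high end, and the widest errors belong to dim isoform genes such as Cox7b2.

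In complex V, 10 of 31 probe sets were higher and 4 lower, with a median of 0.10, and 6 and 7 after quantile normalization, with a median of -0.04. Without SThdh111/111 sample 2 the lower ones were 2. Of 9 probe sets for the 5 small subunits of its membrane part 7, for 4 genes, were higher and 1 lower, where 9.87% of all tested and 38.7% of bright probe sets were higher. After quantile normalization, where the Atp5j2 calls were lost, 5 of these 9 were higher and 1 lower. Whether these subunits differ from the rest of the complex was not tested. Atp5md, the subunit also known as DAPIT, measured 11.47, 11.39, 11.39 and 11.92 in SThdh7/7 and 12.65, 12.44, 12.42 and 12.83 in SThdh111/111. Sample 4 was the highest within each line, the lines did not overlap, and the rise of 1.04 ± 0.12 (adjusted p = 2e-05) was the largest among the members, 0.96 after quantile normalization.

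Atp5l, subunit g, which with subunit e helps to hold 2 synthases together as a dimer, measured 12.28, 12.13, 12.35 and 12.35 in SThdh7/7 and 12.93, 12.94, 13.01 and 13.08 in SThdh111/111. It rose by 0.72 ± 0.07 (adjusted p = 2.6e-06), 0.58 after quantile normalization, with no overlap. Atp5k, subunit e, rose at all 3 of its probe sets.

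The Atp5k probe set with the lowest adjusted p measured 11.32, 11.43, 11.38 and 11.55 in SThdh7/7 and 11.98, 11.98, 12.02 and 11.95 in SThdh111/111, a rise of 0.56 ± 0.07 (adjusted p = 2e-05), and the brightest rose by 0.62 ± 0.11, from 13.02, 12.59, 13.13 and 12.68 in SThdh7/7 to 13.44, 13.53, 13.35 and 13.58 in SThdh111/111. Both separated the lines, and after quantile normalization the rises were 0.50 and 0.47. The annotation lists 4 pseudogenes named for Atp5k and 2 named for Atp5l. Atp5j2, subunit f, rose by 0.24 ± 0.07 at its brightest probe set as deposited (adjusted p = 0.022) but stood at -0.04 after quantile normalization.

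Atp5mpl, a small proteolipid, measured 12.36, 12.28, 12.19 and 12.03 in SThdh7/7 and 11.98, 11.97, 11.82 and 12.03 in SThdh111/111, touching at 12.03, and fell by 0.26 ± 0.08 (adjusted p = 0.026). The fall was 0.37 after quantile normalization, and the call was lost without SThdh7/7 samples 1 and 2 (difference -0.16, adjusted p = 0.2).

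Subunits of the catalytic head and central stalk of complex V were mixed. Atp5e, the epsilon subunit at the foot of the central stalk, measured 11.30, 11.35, 11.88 and 11.55 in SThdh7/7 and 12.27, 12.29, 12.20 and 12.32 in SThdh111/111 and rose by 0.75 ± 0.11 (adjusted p = 0.00013), 0.67 after quantile normalization. Its neighbour Atp5d, the delta subunit, fell by 0.33 ± 0.07 at probe set 1423716_s_at (adjusted p = 0.0039), from 12.11, 12.36, 12.31 and 12.34 in SThdh7/7 to 11.94, 12.01, 11.82 and 12.02 in SThdh111/111. The brighter Atp5d probe set measured 13.26, 13.30, 13.31 and 13.28 in SThdh7/7 and 13.03, 13.06, 13.15 and 13.13 in SThdh111/111, with no overlap, and fell by 0.20 ± 0.05. After quantile normalization the Atp5d falls were 0.43 and 0.36.

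The catalytic beta subunit Atp5b and the gamma shaft subunit Atp5c1 differed by 0.07 ± 0.09 and 0.03 ± 0.06 as deposited. After quantile normalization both were called lower, at -0.22 and -0.14. The alpha subunit Atp5a1 was not called at its brightest probe set (adjusted p = 0.98) and rose by 0.30 ± 0.08 at another, a call lost after quantile normalization.

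In the peripheral stalk of complex V, Atp5o, the oligomycin sensitivity protein that joins stalk and head, fell. It measured 13.03, 13.11, 13.27 and 13.25 in SThdh7/7 and 12.68, 12.64, 12.77 and 12.76 in SThdh111/111, every value of the second line below every value of the first. The fall was 0.45 ± 0.07 (adjusted p = 2e-04), 0.59 after quantile normalization, and after centring it was 0.30 and uncalled (adjusted p = 0.21). The second Atp5o probe set, where SThdh7/7 samples 1 and 2 lay at 10.75 and 10.84 and samples 3 and 4 at 11.77 and 11.78, was not called with all samples (difference -0.21), but without samples 1 and 2 it fell by 0.70 (adjusted p = 0.00013). The stalk subunits Atp5pb, Atp5h and Atp5j differed by 0.20, 0.11 and -0.09 at their brightest probe sets and were not called as deposited. Atp5j was called lower after quantile normalization, at -0.31 (adjusted p = 0.0031). Of the 7 stalk probe sets limma called 0 higher as deposited, and 1 at an unadjusted p under 0.05.

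The proton-carrying c ring is built from 1 protein encoded by 3 genes. Atp5g3 measured 14.25, 14.30, 14.35 and 14.30 in SThdh7/7 and 14.49, 14.58, 14.53 and 14.52 in SThdh111/111 and rose by 0.23 ± 0.05 (adjusted p = 0.0063), with no overlap, but it stood at 0.00 after quantile normalization (adjusted p = 0.98). Atp5g1 measured 11.72, 11.45, 11.48 and 11.56 in SThdh7/7 and 11.64, 11.81, 11.62 and 11.80 in SThdh111/111, overlapping, with a difference of 0.17 ± 0.08 (adjusted p = 0.15). Atp5g2 measured 13.34, 13.43, 13.23 and 13.12 in SThdh7/7 and 13.26, 13.23, 13.44 and 13.46 in SThdh111/111, with a difference of 0.07 ± 0.08 (adjusted p = 0.64). Among the 6 probe sets of the ring limma made 0 calls after quantile normalization, also at an unadjusted p under 0.05. Of these 6, 3 were below the floor on every array, so the absence of a call says little about them.

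Other genes of the pathway are given by list, beside 13.1% higher and 15.9% lower among all named genes, a share that several of these short lists do not stand clear of. Of 36 genes listed for complex I by their Nduf symbols 15 rose and 2 fell, and 10 and 5 after quantile normalization. Membership went by symbol alone, so Ndufa4 and Ndufa4l2, neither of them called, are counted here. Many of these 36 genes are bright. Among all probe sets with a mean log2 intensity of at least 12, 38.7% were higher as deposited and 25.8% after quantile normalization. Among 19 assembly factors of complex IV 5 rose and 4 fell, with Coa6 up by 0.53 ± 0.09 and Cox16 up by 0.44 ± 0.09, while Cox20 fell by 0.65 and Cox10, which acts in the synthesis of haem a, by 0.60 on the log2 scale. Of 6 assembly factors of complex III 2 rose, Uqcc2 and Uqcc3 (by 0.50 ± 0.08 and 0.56 ± 0.11), and 1 fell, Ttc19 (by 0.41, a call lost after quantile normalization). Of 4 complex II factors 1 fell, Sdhaf1, by 0.51, and limma called 0 higher, also at an unadjusted p under 0.05.

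Around complex V, the inhibitor protein gene Atpif1 rose by 0.54 ± 0.06 (adjusted p = 1.1e-05), 0.40 after quantile normalization, and the assembly factor gene Tmem70 fell by 0.45. Of 6 carriers and porins 2 rose and 3 fell as deposited. Slc25a5, an exchanger of ADP for ATP, fell by 0.94 ± 0.06 (adjusted p = 8.9e-08), and its relative Slc25a4 rose by 0.28 ± 0.07, a call lost after quantile normalization, as was that of the phosphate carrier Slc25a3 (0.18 ± 0.05). The porin gene Vdac2 fell by 0.49 ± 0.06.

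Among 13 tricarboxylic acid cycle genes 2 rose, Idh2 by 0.40 ± 0.06 and Idh3b by 0.32 ± 0.06, and 4 fell, led by the fumarase gene Fh1 at 0.74 ± 0.08 and Idh3a at 0.66 ± 0.07. Of 12 ubiquinone synthesis genes 2 rose, Coq2 and Coq9 (by 0.62 and 0.36), and 3 fell, led by Coq10b and Coq7 (by 0.67 and 0.79). Of 8 genes for transcription and copying of mitochondrial DNA 2 fell, the transcription factor genes Tfb2m by 1.13 ± 0.12 and Tfam by 0.28 ± 0.08, and limma called 0 higher, also at an unadjusted p under 0.05. The 6 listed subunits encoded by mitochondrial DNA were not analysed here.

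Promoters were read beside these calls because genes of this pathway are known targets of the factor NRF1 and of ETS family factors. The sequences are RefSeq's, build GRCm38.p6, 250 bases before to 50 after a start, and 36 of the 48 member genes had an entry, with 39 promoters. The letters CCGGAAG, the core of many ETS sites, were sought on both strands and stood in 33.3% of member promoters and 8.86% of all 32851. The NRF1 core, its own reverse complement and shown in capitals in the Atp5k stretch below, stood in 10.3% and 0.971%, and the cyclic AMP response element TGACGTCA, also its own reverse complement, in 5.13% and 1.79%. By call as deposited, the ETS core was found for 8 of 12 genes that rose and 0 of 5 that fell. It was also found for 5 of 19 not called. In the same 3 groups the NRF1 core was found for 1, 0 and 3 genes, and TGACGTCA for 0, 2 and 0. The split depends on scaling. After quantile normalization Cox6a1 and Atp5j, which hold the ETS core, were called lower, and Cox6b1, which also holds it, lost its higher call. Whether letters and calls are linked was not tested. Such matches describe the letters in these windows and do not show that a factor binds.

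The stretches below show these letters in genes whose change is described above, 80 bases each, 5′ to 3′ on the gene's strand. Matched letters are in capitals. The ETS core is shown in Sdhd, Uqcr11 and Uqcrh, read on the opposite strand in Sdhd and Uqcrh, and the NRF1 core in Atp5k. TGACGTCA is shown in Cycs and Uqcrfs1, the 2 that hold it among the 36 member genes with an entry. Both genes were called lower as deposited and after quantile normalization, and neither was called after centring. All stretches lie on the minus strand and end at the base before the start, except that of Cycs, which ends 121 bases before it.
Sdhd, chr9:50603850-50603929: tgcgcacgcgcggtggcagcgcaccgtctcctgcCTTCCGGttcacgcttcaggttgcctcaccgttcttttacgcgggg
Uqcr11, chr10:80406822-80406901: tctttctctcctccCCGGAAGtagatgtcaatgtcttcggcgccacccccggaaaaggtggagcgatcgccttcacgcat
Uqcrh, chr4:116075071-116075150: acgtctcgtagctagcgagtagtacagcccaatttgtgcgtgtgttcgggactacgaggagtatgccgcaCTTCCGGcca
Atp5k, chr5:108434400-108434479: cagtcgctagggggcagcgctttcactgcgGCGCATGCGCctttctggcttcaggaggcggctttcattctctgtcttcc
Cycs, chr6:50566690-50566769: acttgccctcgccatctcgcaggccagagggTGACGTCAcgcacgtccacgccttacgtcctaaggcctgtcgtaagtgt
Uqcrfs1, chr13:30545317-30545396: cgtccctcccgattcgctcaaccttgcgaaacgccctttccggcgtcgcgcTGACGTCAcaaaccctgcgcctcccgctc

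SThdh7/7 samples 1 and 2 also differed from samples 3 and 4 within their own line at many members. Both were below both of the others at 37 of the 94 tested probe sets (39.4%, against 17.5% of all tested) and above both at 14 (14.9%, against 29.7%). Among probe sets with a mean of at least 12 these shares were 52.8% and 5.66% for members and 49.3% and 12.6% for all, so the members' pattern was near that of other bright probe sets. Without the 2 samples 21 member probe sets were higher and 14 lower. Lower calls were gained then for Cox5a 1439267_x_at and the second Atp5o probe set. The calls lost were those of Atp5mpl, of Cox6b1 (difference 0.14, adjusted p = 0.13) and of both called probe sets of Atp5j2 (differences 0.16 and 0.14, adjusted p = 0.13 and 0.16).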

How the data were processed

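RNA was purified with Tri-reagent and columns and labelled with biotin, per the labels' protocols, and groups were read from the sample titles. The deposited table holds a linear intensity for each probe set on each array. GCRMA is named in the submitters' processing notes, but the values do not have its form: after trimming 2% at both ends every one of the 8 arrays had a mean of 500.0, and the lowest was 0.109. The tool behind them is therefore unsettled, and each value is relative to its array's mean. Intensities of different probe sets are not comparable as levels.

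The 64 control probe sets were left out, log2 was taken, and the 41409 of 45037 probe sets at a log2 of at least 4 on at least 4 arrays were kept. Single genes were named for 34945 probe sets, while 932 had several genes and 9160 none in the platform annotation; symbols were updated to the RefSeq table of GRCm38.p6. Lines were compared (SThdh111/111 minus SThdh7/7, two-sided) with limma 3.58.1 in R 4.3.3, lmFit and eBayes with an intensity trend, adjusting by Benjamini-Hochberg over everything kept and calling at an adjusted p below 0.05. A gene was read at its brightest probe set over all arrays. The number of arrays limits the precision. In simulated data on these 41409 probe sets the fit recovered 27% of 100 changed 2-fold and 57% of 100 changed 4-fold. It did so with 3 false calls, and made 0 calls where nothing was changed. Of the 41409, 1513 had a mean log2 intensity of at least 12, against 53 of the 94 members tested. The recovered shares thus need not hold for the members.

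The members, gene lists, floor and tests were chosen with earlier results of these data known. Named were Htt, per complex and direction the 2 called probe sets of lowest adjusted p, the isoform genes, Cycs, Cyc1, genes with opposite calls, and 2 called genes per direction from each other list; further members were named after their values were seen. Same-numbered samples of the lines did not deviate together (correlations of -0.014 to 0.009), so the numbers were not used as pairs. Alternatives were other filters, quantile normalization, centring, no trend, array weights, leaving out probe sets ending in _x_at, _s_at or _a_at, a replicate block, leaving out samples, and averaging the probe sets of a gene. Figures were drawn with matplotlib 3.10.9.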

Additional observations from a re-analysis of the deposited data

Results flagged for a closer look

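Among 66 groups of 4 samples checked for a sample far from the others, where chance marks about 1 in 20, 1 stood out. Cox7a1 measured 5.89 (log2 intensity) in SThdh111/111 sample 3, against 6.08 to 6.10 in the other 3 samples of that line. All 4 values lay below the floor of 7.02.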

How the results depend on the processing

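Depth on an array is signal over background: 13 member probe sets below the floor on every array support no statement on level. Quantile normalization left 6 higher and 7 lower probe sets in complex V with a median of -0.039, 9 lower in complex IV, 5 lower in complex III, 24 lower in all and 14 lower genes, and Cox6b1 went from 0.23 to -0.0078. Centring left 2 lower probe sets in all, 0 in complexes IV and V and for cytochrome c, and 0 lower genes, with medians of 0.26, 0.16, -0.32 and 0.25 for complexes II and III, cytochrome c and complex V. Without the intensity trend 1 probe set was higher in complex II and 6 in complex V, 1 was lower in complex V and 8 in all, and 4 genes were lower. The calls of the brightest Uqcr10 probe set, the dimmer Sdhd one, Cox5a 1448153_at, Atp5d 1423716_s_at, Cox6b1 and Atp5g3 were lost without the trend (adjusted p = 0.062 to 0.2). Without probe sets ending in _x_at, _s_at or _a_at, and so with fewer tested, 10 were higher (1 in complex II, 2 in III, 2 in IV, 5 in V) and 6 lower (1 for cytochrome c, 1 in V). Without SThdh7/7 samples 1 and 2 the cytochrome c median was -0.58. Leaving out each sample in turn gave 20 to 26 higher and 9 to 14 lower probe sets, 12 to 16 higher and 3 to 7 lower genes, 2 to 5 lower in complex V, and a complex III median of -0.0056 to 0.095, the last without SThdh7/7 sample 4. The cause of these changes was not tested. With the sample number as a replicate block, 26 probe sets were higher and 14 lower, with 15 and 7 genes, and it changed no call among the 33 named probe sets; 1 of 4 numbers correlated best with its own partner. No filter and array weights also kept all 33. A filter at a log2 of 6 added a call for Cox7a1 (adjusted p = 0.048), and one at 8 added Cyc1 and Cox8a (adjusted p = 0.038 and 0.037). Averaging the probe sets of a gene, 12 genes were higher and 6 lower.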
